A study of Homo sapiens with 2 samples.

Results

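The 36 genes described here encode proteins that start S phase and copy DNA, from the cyclin E genes and the loaders of the replicative helicase to the polymerases, the nucleotide-producing enzymes and the factors that package new DNA. They were taken by symbol from a list that, like those set beside it, was chosen with earlier results of these arrays known. A probe set counted for a gene where the platform annotation pairs it with that gene alone. All 36 had such a probe set, out of 19775 genes with one, and all 36 were measured, out of 13291 measured genes. A gene was represented by its probe set with the highest mean intensity and called measured where its higher value was above 22.3, the median intensity pooled over both arrays and the floor used throughout. No member's representative value lay below the floor on either array, and the members' values ranged from 106 to 5611.

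Total RNA of 2 human kidney cancer lines was hybridised to Affymetrix arrays, 1 array per line. The 786-VHL line carries a functional VHL gene and was derived from 786-O, a renal cell carcinoma line whose own VHL gene is mutated. Whether the 2 lines differ in alleles other than VHL was not measured here. The labels name no treatment of the cells used. Whether 786-VHL is a clone or a pool, and what drives its VHL gene, is not given in the sources used here. The comparison asked which genes depend on a functional VHL, the part of a ubiquitin ligase that recognises the HIF alpha subunits.

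Each array held 54613 probe sets, with a median intensity of 22.6 in 786-VHL and 21.97 in 786-O. VHL itself read 15.96 in 786-VHL and 28.9 in 786-O on its brighter probe set, and 7.96 and 6.32 on the other, so 3 of these 4 values lay below the floor and they do not check which array is which. Kidney carcinoma markers were present, 7 of 7 with a probe set being measured, among them PAX8 at 1068 in 786-VHL and 1521 in 786-O. The leukocyte markers PTPRC, CD3E and CD14 were below the floor on both arrays, the 4 endothelial markers summed to 79.8 in 786-VHL and 62.9 in 786-O, and the 6 fibroblast and pericyte markers to 187 and 159. A single array per line allows neither a test nor an error across cultures, and every direction rests on the array labels. Differences are log2(786-VHL + 16) minus log2(786-O + 16), positive where the gene was higher in 786-VHL. Folds, and the fold sizes used for counting, are also of values with 16 added, so they are smaller than the plain ratios. RNA of whole cultures was measured, so a different share of cells in S phase and a different amount of RNA per cell cannot be told apart.

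Before a cell enters S phase, the origin recognition complex, CDC6 and CDT1 load the ring-shaped MCM2 to MCM7 helicase onto origins of replication. Cyclin E with its kinase then helps to fire these origins, CDC45 and the GINS complex switch the helicase on, and polymerases held by the PCNA clamp copy the strands. Most of these genes are switched on together late in G1 by E2F transcription factors, which are set free when the retinoblastoma protein is phosphorylated. In kidney cancer cells without VHL, HIF-2 alpha is known for driving cyclin D1, which acts upstream of this step.

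The promoters of 2 members with the larger differences are shown because they hold the letters to which E2F proteins are known to bind, written here as 4 strings, TTTCCCGC, TTTCGCGC, TTTGCCGC and TTTGGCGC, searched on both strands. The sequences are RefSeq promoter windows of GRCh38.p14, read 5′ to 3′ along the gene from 250 bases before its annotated start to 50 bases after, with matches on either strand in capitals. The MCM6 window lies at chr2:135876394-135876693 on the minus strand and the CDC6 window at chr17:40287629-40287928 on the plus strand.
MCM6: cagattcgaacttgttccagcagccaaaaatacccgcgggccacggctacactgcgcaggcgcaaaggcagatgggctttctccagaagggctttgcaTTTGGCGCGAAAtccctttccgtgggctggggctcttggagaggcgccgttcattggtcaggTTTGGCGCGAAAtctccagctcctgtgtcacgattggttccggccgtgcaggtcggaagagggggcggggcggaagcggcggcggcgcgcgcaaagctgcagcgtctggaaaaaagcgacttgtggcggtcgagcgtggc
CDC6: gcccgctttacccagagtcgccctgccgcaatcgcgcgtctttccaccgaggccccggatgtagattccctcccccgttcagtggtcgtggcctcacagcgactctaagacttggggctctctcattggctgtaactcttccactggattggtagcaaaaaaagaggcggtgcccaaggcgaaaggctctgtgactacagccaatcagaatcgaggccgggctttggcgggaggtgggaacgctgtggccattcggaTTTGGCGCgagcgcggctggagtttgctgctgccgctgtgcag

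The MCM6 window held 4 matches in 2 places, each place a pair of strings on opposite strands that overlap in the middle, beginning 152 and 90 bases before the start. The CDC6 window held 1 match, at bases 8 to 15 after the start. Around the starts of 3 further helicase genes, chosen for display after their values were seen, the same strings lay within 30 bases of an annotated start. The stretches run 30 bases to either side of the start, MCM2 at chr3:127598381-127598440 on the plus strand, MCM3 at chr6:52284713-52284772 and MCM7 at chr7:100101368-100101427, both on the minus strand.
MCM2: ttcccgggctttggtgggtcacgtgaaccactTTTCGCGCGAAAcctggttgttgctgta
MCM3: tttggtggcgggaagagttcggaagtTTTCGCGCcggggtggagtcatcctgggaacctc
MCM7: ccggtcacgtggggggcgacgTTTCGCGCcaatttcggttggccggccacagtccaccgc

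As a list the 36 genes were shifted upward in 786-VHL by a small amount, with a few members shifted far more. Of the 36, 24 were higher in 786-VHL and 12 lower, that is 66.7% higher beside 56.9% of all measured genes. Their median difference was 0.24, with quartiles of -0.05 and 0.45, beside a median of 0.05 and quartiles of -0.16 and 0.25 over all measured genes. At least 2-fold higher were 3 members (8.33%), beside 1.56% of all measured genes, and none was at least 2-fold lower, beside 2.22%. At least 1.5-fold higher were 5 members (13.9%), beside 6.29%, and none was at least 1.5-fold lower, beside 6.61%. The 5 were ORC1, CCNE2, MCM6, CDC6 and PRIM1. Just inside the 1.5-fold size, a log2 difference of 0.58, lay PRIM1 at 0.70, and just outside it RFC5 at 0.55.

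**Figure D1:**
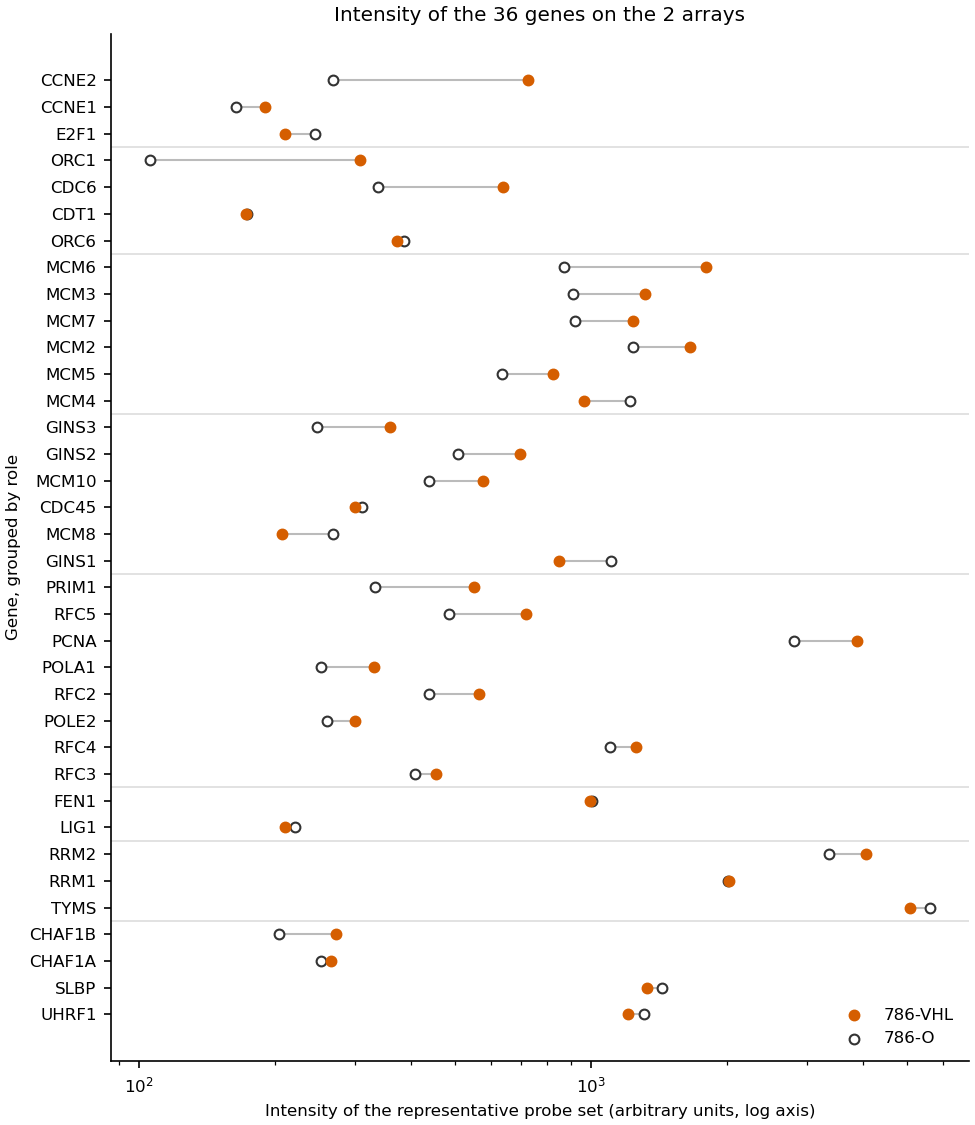
Intensity of each gene's representative probe set in 786-VHL (filled) and 786-O (open), in arbitrary units on a log axis, 1 array per line, with genes grouped by role and joined by a line. The longest gaps are those of ORC1 and CCNE2, and levels of different genes are not comparable because each is read by its own probes.

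The only measure of error was the disagreement between probe sets of 1 gene, which leaves out the spread from culture to culture and array to array. In the 6436 genes that had more than 1 probe set above the floor, the SD of the difference between probe sets of a gene was 0.33, and over the 19 members with several it was 0.38. More than 0.33 higher were 17 members (47.2%), beside 18.1% of all measured genes, and more than 0.33 lower were 2 members, GINS1 and MCM8 (5.56%), beside 14.8%. The other 17 members differed by less than that SD. All probe sets above the floor went the same way in 10 of the 19 members, and in 55.8% of the 6436 genes.

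**Figure D2:**
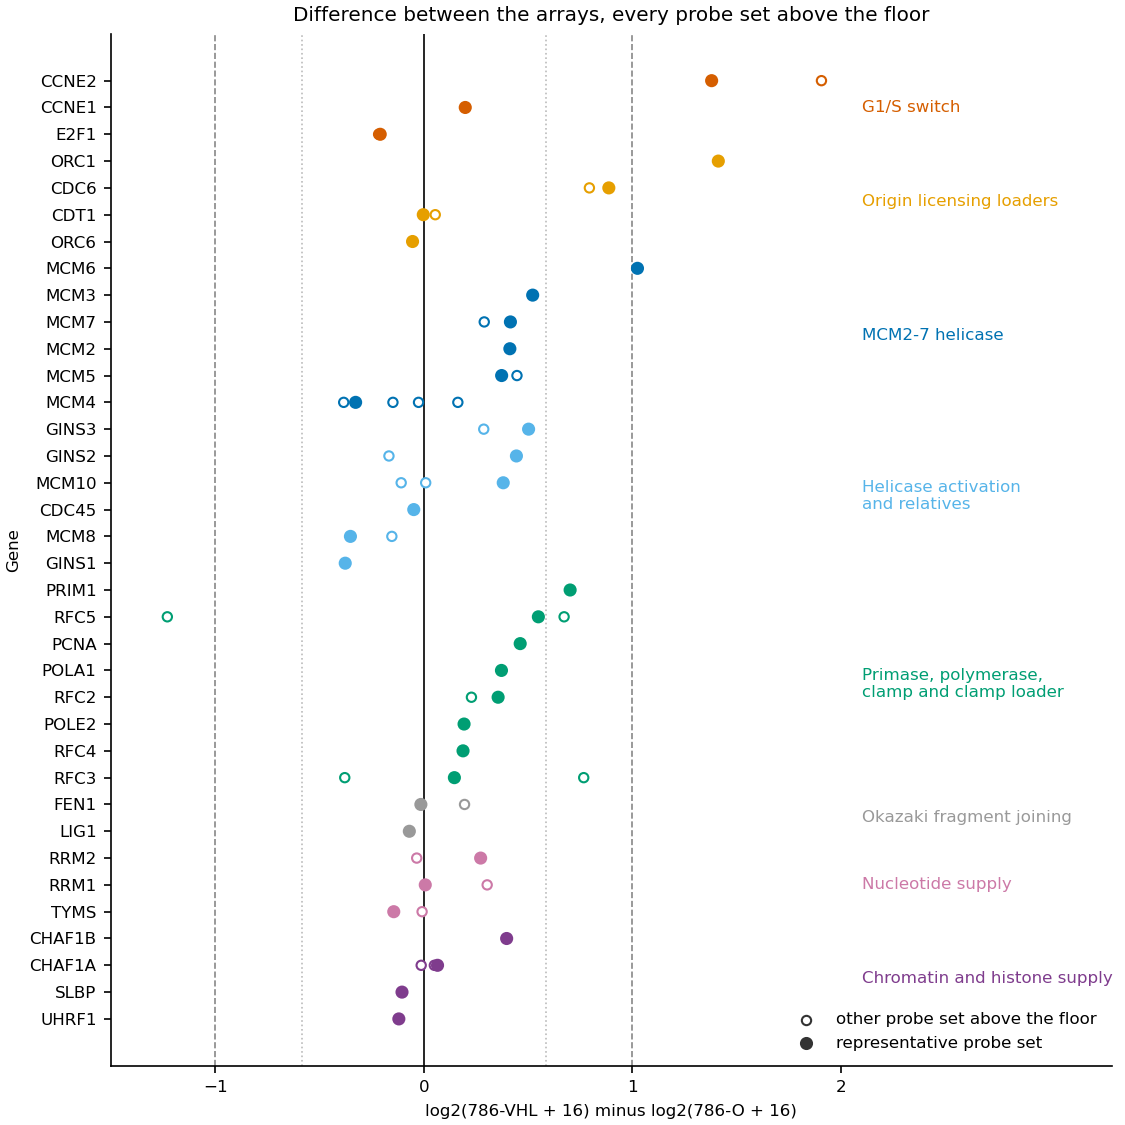
Difference between 786-VHL and 786-O, log2(786-VHL + 16) minus log2(786-O + 16), for the representative probe set of each gene (filled) and its other probe sets above the floor (open), with dashed lines at 2-fold and dotted lines at 1.5-fold. CCNE2, ORC1 and MCM6 lie beyond the right dashed line, and 1 probe set of RFC5 lies beyond the left one at -1.23.

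In the G1/S switch the 2 cyclin E genes differed in size. CCNE2, which encodes cyclin E2, an activator of the kinase CDK2 at S-phase entry, read 723 in 786-VHL and 268 in 786-O, a 2.60-fold higher value and a log2 difference of 1.38. Its other probe set read 534 in 786-VHL and 130 in 786-O, a difference of 1.91, so both probe sets were past 2-fold. Its paralog CCNE1, for cyclin E1, read 190 in 786-VHL and 163 in 786-O, a difference of 0.20 that is less than the SD between probe sets. E2F1, a transcription factor that drives S-phase genes, read 210 in 786-VHL and 245 in 786-O, with differences of -0.21 and -0.22 on its 2 probe sets. Of the 3 genes of the switch, only CCNE2 passed 1.5-fold.

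Among the 4 loaders of the helicase, ORC1 and CDC6 were past 1.5-fold and CDT1 and ORC6 differed little. ORC1, the subunit of the origin recognition complex that is renewed in each cycle, read 308 in 786-VHL and 106 in 786-O, 2.66-fold higher with a difference of 1.41, and it had the largest difference of the 36. It was read by a single probe set, and 88 of the 13291 measured genes had a larger upward difference. CDC6, which works with the complex to load the helicase, read 639 in 786-VHL and 338 in 786-O, 1.85-fold higher with a difference of 0.89. The other CDC6 probe set read 584 in 786-VHL and 330 in 786-O, a difference of 0.79. CDT1, the partner that brings the helicase to the origin, read 173 on both arrays, and its probe sets differed by 0.00 and 0.05. ORC6, the smallest subunit of the complex, read 371 in 786-VHL and 386 in 786-O, a difference of -0.05. ORC2, ORC3, ORC4 and ORC5 encode the other core subunits, are no members and were picked once their values were known. They differed by -0.30, 0.20, 0.18 and 0.27. Second probe sets of ORC2, ORC4 and ORC5 differed by -0.58, 0.31 and 0.60.

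The helicase genes were higher in 5 of 6 cases (83.3%), beside 56.9% of all measured genes, with a median of 0.41. MCM6 read 1792 in 786-VHL and 873 in 786-O, 2.03-fold higher with a difference of 1.02, and its other probe set was below the floor on both arrays. MCM3 read 1316 in 786-VHL and 911 in 786-O, a difference of 0.52, and MCM2 read 1656 and 1240, a difference of 0.41. MCM6 was the only subunit at least 1.5-fold higher. MCM7 differed by 0.42 and 0.29 on its 2 probe sets, the brighter reading 1236 in 786-VHL and 923 in 786-O. MCM5 differed by 0.37 and 0.45, the brighter reading 825 in 786-VHL and 633 in 786-O. MCM4 alone was lower, at 966 in 786-VHL and 1216 in 786-O, a difference of -0.33. Its 5 probe sets ranged from -0.38 to 0.16 and went both ways. The 6 subunits form a single ring in equal numbers, and their RNA differences ranged from -0.33 to 1.02.

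Of the 5 genes that switch the helicase on, 3 were higher and 2 lower, beside 56.9% of all measured genes higher. The group had a median of 0.17 with the lower MCM8, a relative of the ring subunits, counted in. GINS3 and GINS2, subunits of the 4-part GINS complex, differed by 0.50 and 0.44, GINS3 reading 358 in 786-VHL and 248 in 786-O and GINS2 697 and 508. GINS1, another subunit, read 847 in 786-VHL and 1104 in 786-O, a difference of -0.38 that was the lowest of the 36. GINS4, the remaining subunit and no member, read 55.1 in 786-VHL and 296 in 786-O, a difference of -2.13, but its other probe set above the floor read 24.6 and 26.8, a difference of -0.07. The GINS genes spanned both directions. A dimmer GINS2 probe set, reading 47.0 in 786-VHL and 54.8 in 786-O, differed by -0.17. MCM10, which helps to open the loaded helicase, read 576 in 786-VHL and 439 in 786-O, a difference of 0.38, with its other probe sets at -0.11 and 0.01. CDC45, the subunit that joins MCM and GINS in the working helicase, read 301 in 786-VHL and 312 in 786-O, a difference of -0.05. MCM8, which acts in recombination repair, read 206 in 786-VHL and 268 in 786-O, with differences of -0.35 and -0.15.

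The genes of primer synthesis, polymerases, clamp and clamp loader were higher in 8 of 8 cases, beside 56.9% of all measured genes. Their differences ran from 0.15 to 0.70, with a median of 0.36. On their representative probe sets POLE2, RFC3 and RFC4 differed by less than the SD between probe sets. PRIM1, the catalytic subunit of primase, read 550 in 786-VHL and 332 in 786-O, 1.63-fold higher with a difference of 0.70 on its single probe set. POLA1, the catalytic subunit of the polymerase that extends the primer, read 331 in 786-VHL and 252 in 786-O, a difference of 0.37. PCNA, the sliding clamp, read 3877 in 786-VHL and 2810 in 786-O, a difference of 0.46. POLE2, a subunit of the leading-strand polymerase, read 299 in 786-VHL and 260 in 786-O, a difference of 0.19. Of these 4 genes only POLE2 lay within the SD between probe sets.

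The clamp loader opens PCNA and places it on DNA, and its small subunits RFC2, RFC3, RFC4 and RFC5 differed by 0.36, 0.15, 0.19 and 0.55. RFC5 read 716 in 786-VHL and 484 in 786-O, and a second probe set agreed at 0.67. Its last probe set read 140 in 786-VHL and 351 in 786-O, a difference of -1.23, so the RFC5 probe sets lay farther apart than those of any other member. RFC3 was also divided, with probe sets at 0.15, 0.77 and -0.38, the last at intensities of 30.6 in 786-VHL and 44.6 in 786-O, near the floor. RFC2 had probe sets at 0.36 and 0.23, the brighter reading 565 in 786-VHL and 438 in 786-O. RFC4 read 1256 in 786-VHL and 1100 in 786-O. RFC1, the large subunit, no member and named after its value was seen, differed by 0.33, and by 0.07 on its other probe set above the floor.

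Genes of the later steps differed little between the lines. FEN1, the nuclease that trims Okazaki fragments, read 996 in 786-VHL and 1006 in 786-O, with probe sets at -0.01 and 0.20. LIG1, the ligase that joins them, read 210 in 786-VHL and 221 in 786-O, a difference of -0.07. Among the enzymes of nucleotide supply, the ribonucleotide reductase subunit genes RRM2 and RRM1 differed by 0.27 and 0.01, RRM2 reading 4064 in 786-VHL and 3362 in 786-O and RRM1 2022 and 2012. TYMS, which makes thymidylate, read 5075 in 786-VHL and 5611 in 786-O, a difference of -0.14. The second probe sets of RRM2, RRM1 and TYMS stood at -0.03, 0.30 and -0.01, so none of these 5 genes passed the SD between probe sets on any probe set.

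Of the genes that package new DNA, CHAF1B alone differed by more than that SD. CHAF1B, a subunit of the chromatin assembly factor that deposits histones behind the fork, read 273 in 786-VHL and 204 in 786-O, a difference of 0.40. Its partner CHAF1A read 266 in 786-VHL and 253 in 786-O, with 3 probe sets from -0.01 to 0.07. SLBP, the stem-loop binding protein needed for histone mRNA, read 1331 in 786-VHL and 1432 in 786-O, a difference of -0.10. UHRF1, which helps to copy DNA methylation, read 1204 in 786-VHL and 1309 in 786-O, a difference of -0.12. The group median was -0.02, with 2 genes higher (50%) and 2 lower, beside 56.9% of all measured genes higher.

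**Figure D3:**
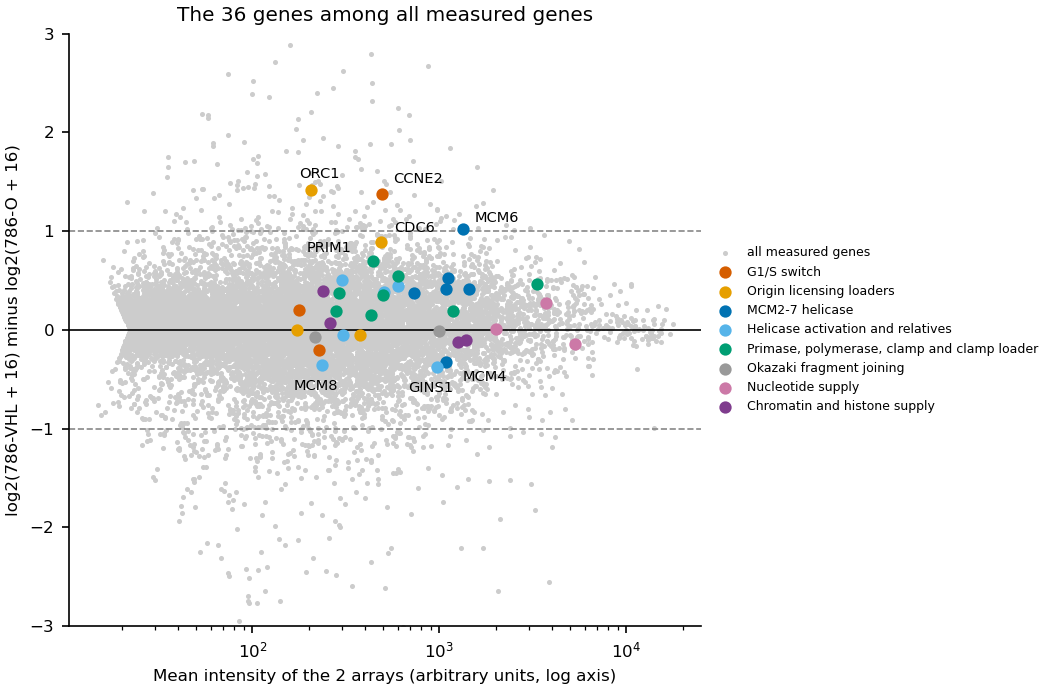
Mean intensity of the arrays (log axis) against the difference, log2(786-VHL + 16) minus log2(786-O + 16), for all measured genes (grey) and the 36 genes (coloured by role), with dashed lines at 2-fold and 18 grey genes beyond the vertical axis. ORC1, CCNE2 and MCM6 lie on or above the upper dashed line and no member lies near the lower one.

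Brightness did not order the members' differences. Across the 36 genes, which share both arrays, Pearson's r between log2 mean intensity and the difference was -0.08 and Spearman's rho 0.02, given as a description. Position was also described, since neighbouring genes were shifted together in places on these arrays. The median difference of the 10 measured genes on either side of each member, in the gene order of GRCh38.p14, ranged from -0.22 for TYMS, which had 12 such neighbours in place of 20, to 0.40 for ORC1. Of the 20 neighbours of ORC1, 15 were higher in 786-VHL, and their part in its difference was not tested. The neighbour medians of CCNE2, CDC6, PRIM1 and MCM6 were 0.18, 0.16, 0.14 and -0.03, each below the gene's own difference. Across the 36 members r between a gene's difference and its neighbours' median was 0.42, again a description.

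Other replication genes, which are no members, had a median near that of all measured genes. Of 48 measured genes of this list 25 were higher (52.1%) and 22 lower in 786-VHL, beside 56.9% of all measured genes higher. The median was 0.05, with quartiles of -0.18 and 0.31. None was at least 2-fold higher, beside 1.56% of all measured genes, and 1, GINS4, was at least 2-fold lower, beside 2.22%. The 1.5-fold size was passed downward by 3, beside 6.61%. At least 1.5-fold higher were 6 (12.5%), a share close to the 13.9% of the 36 members and above the 6.29% of all measured genes. The highest were the histone chaperone genes NASP, at 1911 in 786-VHL and 998 in 786-O with a difference of 0.93, and ASF1A, at 1052 and 609 with a difference of 0.77. A second NASP probe set differed by 1.03 and a second ASF1A probe set by 0.38. The lowest were GINS4 and POLE4, a histone-fold subunit of the leading-strand polymerase, which read 266 in 786-VHL and 450 in 786-O, a difference of -0.73. Of the single-strand binding complex, named after its values were seen, RPA3 differed by 0.74, RPA2 by 0.64 and RPA1 by 0.29.

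Regulators of G1 outside the 36 went both ways. Of 25 measured, 15 were higher (60%) and 10 lower in 786-VHL, close to the 56.9% of all measured genes that were higher. Their median was 0.07. SKP2, the ubiquitin ligase subunit that marks the CDK2 inhibitor p27 for destruction, read 1596 in 786-VHL and 778 in 786-O, a difference of 1.02, and its other probe sets differed by 1.58 and 0.76. CDKN1B, the gene of p27, read 382 in 786-VHL and 603 in 786-O, a difference of -0.64 on its single probe set. CDKN1C, for the related inhibitor p57, read 145 in 786-VHL and 74.5 in 786-O, a difference of 0.83, and its other probe sets above the floor differed by 0.53 to 0.58. LIN52, a subunit of the DREAM complex that represses cell cycle genes in resting cells, read 99.4 in 786-VHL and 169 in 786-O, a difference of -0.68.

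Genes of G2 and M phase are the list most like this one, since they too mark dividing cells, and their differences lay on the other side of 0. Over 40 measured genes the median was -0.30, with quartiles of -0.47 and -0.08. In 786-VHL 7 were higher (17.5%) and 33 lower, beside 56.9% of all measured genes higher. The highest were MKI67, a marker of cycling cells, at 0.18 and BUB3, of the spindle checkpoint, at 0.08. Both had probe sets above the floor going each way, with a range of -0.38 to 0.19 in MKI67 and -0.13 to 0.14 in BUB3. The lowest were UBE2C, which helps to destroy mitotic cyclins, at -1.09 and the mitotic kinase gene CDK1 at -0.83. CDK1 had 4 probe sets above the floor, from -0.83 to -0.15, and UBE2C had 1. The 36 genes' lower quartile of -0.05 lay above the G2 and M genes' upper quartile, and with 1 array per line this difference between lists was not tested.

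**Figure D4:**
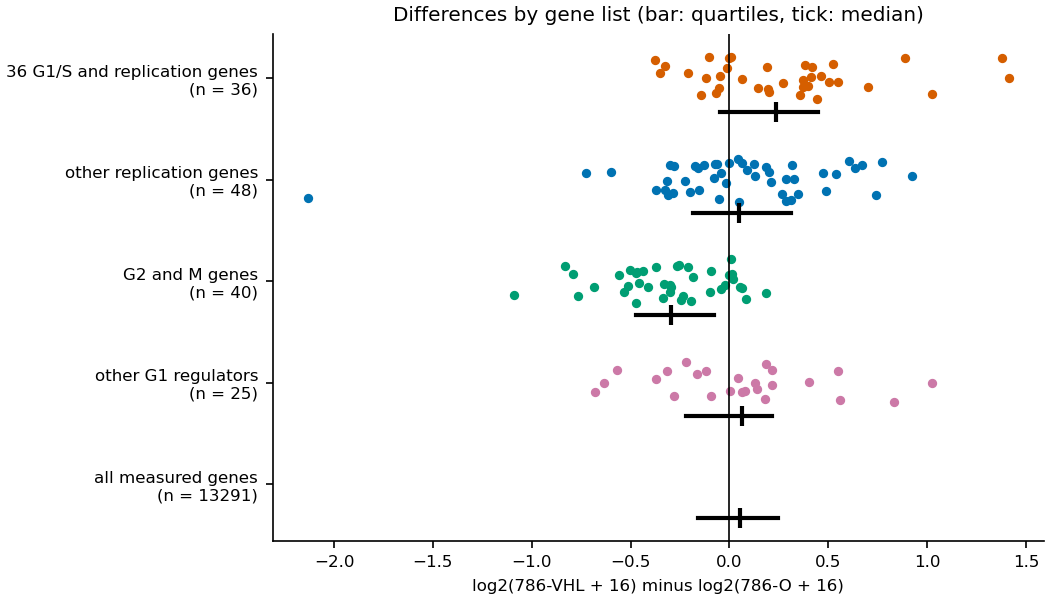
Difference between 786-VHL and 786-O for each measured gene of 4 lists (points, spread vertically for legibility), with the quartiles (bar) and median (tick) of each list and of all 13291 measured genes. The bar of the 36 genes lies to the right of that of the 40 G2 and M genes, and the other lists lie near that of all genes.

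The E2F strings were common in the members' promoters. RefSeq windows were available for 33 of the 36 genes, 41 windows in all, and 19 windows (46.3%) held an E2F string, beside 4.69% of the windows of measured genes and 3.31% of all 35116 windows. By gene, 18 of 33 held one (54.5%), beside 6.39% of measured genes with a window. In the comparison lists these were 12 of 38 other replication genes (31.6%), 6 of 21 other G1 regulators (28.6%) and 3 of 33 G2 and M genes (9.09%). In 15 of the 18 a match lay within 60 bases of the start. The 18 genes with a string had a median difference of 0.28 and the 15 without one a median of 0.20. The shares went the other way. Of the 18, 61.1% were higher and 11.1% at least 1.5-fold higher, beside 73.3% and 13.3% of the 15. ORC1 and PRIM1 were among the 15, which says only that these letters are not in their windows. Over all measured genes with a window, the 682 with a string had a median of 0.04 and the 9994 without one 0.05.

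The element known from G2 and M promoters, the CHR string TTTGAA, showed the opposite share. It lay in 1 of the 41 member windows (2.44%), that of RRM1, beside 10.5% of the windows of measured genes, 15.2% of all windows and 60.5% of the 43 windows of G2 and M genes. The CCAAT box, searched as CCAAT, lay in 63.4% of member windows, 79.1% of G2 and M windows and 34.6% of all windows. The 20 members with a CCAAT box had a median difference of 0.38 and the 13 without one 0.19, while over all measured genes with a window the medians were 0.04 for the 4531 with the box and 0.06 for the 6145 without it. Member windows were also richer in G and C, with a median of 67.7% beside 64.3% over windows of measured genes and 58.7% over all windows, a composition that favours GC-rich strings such as the E2F strings, and its part in these shares was not tested. Each match describes letters and says nothing of binding.

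**Figure D5:**
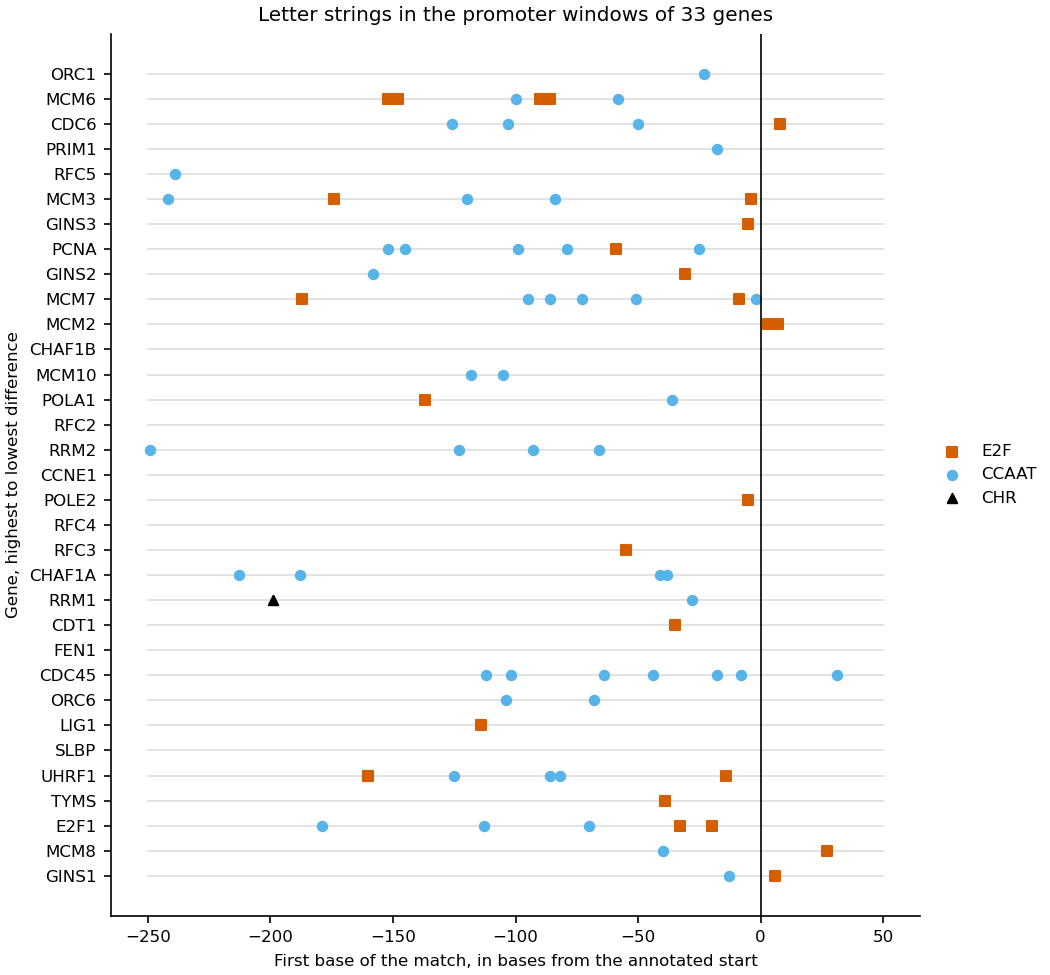
First base of each E2F, CCAAT and CHR match (symbols), on either strand, in bases from the annotated start (vertical line), for the 33 members with a promoter window, ordered by difference from high to low, with matches of all windows of a gene on 1 row. E2F matches (squares) occur from MCM6 near the top to GINS1 at the bottom, and many lie near the start.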

How the data were processed

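The authors deposited an intensity for every probe set on each array, not on a log scale, judging by the range of the values. Per the labels, biotin-labelled total RNA extracted with Trizol was used. R 2.10 is the only tool in the submitters' processing notes, and how background, normalization and probes were handled is not given in the sources used here, so a step that compresses differences would not be visible. Precision is limited by the number of arrays.

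Of 54613 probe sets, a platform annotation paired 41091 with 1 gene, 1801 with several and 11721 with none. The last 2 kinds were not used. Current symbols came from RefSeq for 41037. Intensities were taken as log2(value + 16), which understates differences of dim genes. With 1 array per line, genes were described by size, at least 2-fold and 1.5-fold, beside all 13291 measured genes. Every member was named, with the 2 highest and 2 lowest measured genes of each of the 3 comparison lists. Other genes, those of the repair list included, were picked once their values were known. Members and lists were chosen with earlier results of these arrays known. CKS1B is in both the G1 and the G2 and M lists.

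Alternatives were quantile normalization, removal of the intensity trend (lowess, span 0.3), pseudocounts of 1 and 64, no floor or one at the 75th percentile, the median over all probe sets of a gene, leaving out probe sets with an _s_at, _x_at or _a_at suffix, and centring on all measured genes. The computation was tested on simulated data. Software was Python 3.11.15 with pandas 2.3.3, numpy 2.4.6, statsmodels 0.14.6, scipy 1.17.1 and, for figures, matplotlib 3.10.9.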

Additional observations from a re-analysis of the deposited data

How the results depend on the processing

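No paired analysis was possible because a single array stands on each side, and no replicate could be left out. Over 9 alternatives, 311 of 314 member values moved by less than the SD between probe sets. The exceptions were GINS2 at -0.17 without suffixed probe sets, where a dimmer probe set represents it, and MCM10 at 0.01 in that setting and over the median of probe sets. ORC1 and CCNE2 were at least 2-fold higher in 9 of 9 alternatives, MCM6 in 5 of 9 with a lowest difference of 0.94, and CDC6 and PRIM1 at least 1.5-fold higher in 9 of 9. The members' median of 0.24 was 0.17 over the median of probe sets, and the number higher was 18 of 26 without suffixed probe sets. The G2 and M median of -0.30 was -0.37 without the intensity trend, -0.35 with centring and -0.41 without suffixed probe sets. The median of other replication genes, 0.05, was -0.036, -0.0074 and -0.020 in those settings and -0.0069 with quantile normalization. The sign of 5 members, CDT1, FEN1, RRM1, RRM2 and GINS2, changed in at least 1 alternative. Causes were otherwise not tested. Differences of genes near the floor, such as the dimmer probe sets of RFC3, GINS2 and GINS4, are limited by signal over background.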

Other observations

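Genes of DNA repair at the fork were a list of 25 written after the arrays had been seen. Their median difference was -0.06 over 20 measured members. Of these 9 were higher (45%) and 11 lower in 786-VHL, beside 56.9% of all measured genes higher. At least 2-fold lower were 2 of the 20, beside 2.22% of all measured genes. They were XRCC2, a gene of homologous recombination, and BRIP1, a helicase of the Fanconi anaemia pathway. XRCC2 read 18.4 in 786-VHL, below the floor, and 67.5 in 786-O, at least 2.18-fold lower with the floor in place of the lower value. BRIP1 read 165 in 786-VHL and 375 in 786-O, a difference of -1.11, while another of its probe sets differed by -0.02. MSH6, a mismatch repair gene, was the highest at 0.27, and none was 1.5-fold higher, beside 6.29% of all measured genes.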
